A study of Mus musculus with 8 samples.

Results

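The digestive proteases that acinar cells of the pancreas secrete were followed in embryonic pancreatic epithelium of wild-type and Sox9 mutant mice. They were chosen by name, as every non-control probe of the array that carries the gene name Cpa1, Cpb1, Ctrb1, Ctrl, Ctrc, Ela1 (current symbol Cela1), Prss2, Try4 or Spink3. Of these 9 genes, 7 had a probe, and Ela1 had 2, which made 8 probes of 41174 on the array. Try4 and Spink3 are not analysed here, so the trypsin inhibitor of the set has no value. All 8 probes passed the filter on dim probes, which left 29461 probes for testing.

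RNA came from whole pancreatic epithelium, dorsal and ventral together, of mouse embryos at e15.5 (embryonic day). The Sox9 mutant group (MUT) held 4 pools from Sox9 fl/fl; Rosa26-CreER embryos, and the wild-type group (WT) held 4 pools from Rosa26-CreER littermates. Every pool combined 4 pancreata, and the dams of both groups had received tamoxifen, 6 mg per 40 g, at e12.5. The embryos came from a cross of Sox9-flox mice, of mixed FVB/N, C57Bl/6J and CD1 background, with Rosa26-CreER mice on C57Bl/6J. CreER, which tamoxifen activates, is driven from the Rosa26 locus, which is active in most cell types, so loss of Sox9 was not directed to 1 cell type. The comparison asks which genes depend on Sox9, a factor needed by pancreatic progenitor cells and kept in ducts, while acinar, duct and endocrine cells form.

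Acinar cells store digestive proteases as inactive zymogens in secretory granules and release them into the duct. In the gut, enteropeptidase cuts trypsinogen into trypsin, and trypsin then activates the other zymogens, namely the chymotrypsins, the elastases and the carboxypeptidases. Their genes are switched on in the embryonic pancreas at different times, with Cpa1 already present in the multipotent tip cells, and the factor PTF1, which contains PTF1A and RBPJL, is the main activator of the acinar programme.

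Processed signals are given as log2 levels relative to the 75th percentile of each array, so a level of 3 is 8 times that percentile. The probes differ in sequence and brightness, so a level of 1 probe cannot be set against that of another. The scanner software called all 64 member spots well above background, and 0 were saturated or marked as outliers. Of the 64 spots, 51 were so bright that the scanner software took their value from a second scan at lower gain and scaled it up. The array of MUT replicate 2 stood apart from the rest: 85.9% of its probes were well above background against 69.0% to 73.4% on the other 7, its negative control probes had a median of 20.4 units against 4.43 to 6.47, and its median correlation with its own group across probes was 0.91 against 0.993 to 0.995. Slide 1 carried the WT arrays only and slide 2 the MUT arrays only, each with its own scan run, so slide, scan and genotype cannot be told apart. The targeted gene fell in the mutants on 2 of its 3 probes, to 39.8% and 17.6% of the WT signal (limma, adjusted p of 0.00116 and 0.00133), and the third had a log2 fold change of 0.63 (limma, adjusted p 0.342).

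The stretch just upstream of the annotated gene start is shown for the 6 members that RefSeq's promoter table holds. Acinar factors can act in such stretches, and Ptf1a and Rbpjl were measured on the same arrays. Whether the annotated starts are the ones used in acinar cells was not tested. Each sequence is the 220 bases before the RefSeq start of assembly GRCm38.p6, 5′ to 3′ on the gene's strand. Capitals mark CACCTG and CAGCTG, which are E-boxes of the kind PTF1A binds, and TTCCCA, the core letters bound by RBPJ-type factors, on either strand.
Cpa1, chr6:30638998-30639217, plus strand: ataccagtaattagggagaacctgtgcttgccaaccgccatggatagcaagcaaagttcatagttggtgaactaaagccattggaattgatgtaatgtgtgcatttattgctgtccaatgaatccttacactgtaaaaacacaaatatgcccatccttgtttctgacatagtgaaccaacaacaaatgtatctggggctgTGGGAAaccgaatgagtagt
Cpb1, chr3:20275734-20275953, minus strand: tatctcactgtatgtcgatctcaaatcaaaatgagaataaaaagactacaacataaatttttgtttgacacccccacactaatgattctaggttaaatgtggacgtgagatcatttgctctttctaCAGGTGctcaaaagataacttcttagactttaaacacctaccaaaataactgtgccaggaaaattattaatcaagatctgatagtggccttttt
Ctrb1, chr8:111691011-111691230, minus strand: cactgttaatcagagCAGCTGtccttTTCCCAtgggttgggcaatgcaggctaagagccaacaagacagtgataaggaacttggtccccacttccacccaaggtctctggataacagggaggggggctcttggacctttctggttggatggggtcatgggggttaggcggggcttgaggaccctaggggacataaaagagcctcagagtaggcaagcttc
Ctrl, chr8:105933863-105934082, minus strand: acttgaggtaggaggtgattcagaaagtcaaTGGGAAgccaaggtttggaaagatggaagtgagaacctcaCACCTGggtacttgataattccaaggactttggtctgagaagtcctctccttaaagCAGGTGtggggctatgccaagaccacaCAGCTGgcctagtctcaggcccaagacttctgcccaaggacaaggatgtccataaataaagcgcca
Cela1, chr15:100687921-100688140, minus strand: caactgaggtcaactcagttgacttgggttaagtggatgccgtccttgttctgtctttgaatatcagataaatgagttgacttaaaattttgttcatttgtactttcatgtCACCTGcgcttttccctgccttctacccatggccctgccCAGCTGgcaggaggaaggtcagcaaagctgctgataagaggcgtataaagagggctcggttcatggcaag
Prss2, chr6:41521556-41521775, plus strand: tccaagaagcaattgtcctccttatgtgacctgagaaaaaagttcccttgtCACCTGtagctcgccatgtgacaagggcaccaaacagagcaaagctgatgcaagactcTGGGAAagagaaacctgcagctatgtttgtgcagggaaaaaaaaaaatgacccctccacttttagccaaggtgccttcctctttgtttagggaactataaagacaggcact

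Letters were counted over the table's whole window, 250 bases before to 50 after the start, on both strands, and set beside all 32851 windows of the table. CACCTG was in 4 of the 6 member windows and in 20.2% of all windows. CAGCTG was in 4 of 6 and in 16.3% of all, and TTCCCA in 4 of 6 and in 25.6% of all. A window with TTCCCA and at least 1 of the E-boxes was found for Cpa1, Ctrb1, Ctrl and Prss2, which is 4 of 6, and made up 8.64% of all windows. In Ctrb1 the pair lay close together, CAGCTG from 205 and TTCCCA from 194 bases before the start, while in Cpa1 both CAGCTG matches lay after the start. Ctrl had the most E-box matches of the 6, at 149, 93 and 66 bases before the start. The SOX-type letters AACAAT were in 0 of the 6 windows and in 10.7% of all, and AACAATG, which contains them, in 0 of 6 and in 3.78% of all. The motifs do not otherwise overlap, and a match describes letters in this window and not a bound site.

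Across the 8 probes, no protease passed the test between Sox9 mutant and WT epithelium, and the mean of MUT lay between 0.659 (Ctrc) and 2.11 (Ctrl) times that of WT. Of the 8 probes, 0 passed the test across all probes (limma, adjusted p under 0.05), where 3.84% of the 29461 probes did, 1.61% as higher and 2.23% as lower in MUT. The only member probe with an unadjusted p under 0.05 was Ctrl (limma), as against 23.6% of all probes. The median log2 fold change of the 8 probes was -0.10 against 0.05 for all probes tested, with 3 above and 5 below 0, and the median size regardless of sign was 0.25 against 0.23. With all arrays 5 of the 8 probes and 59.1% of all probes had a log2 fold change of less than 0.3 either way. When MUT replicate 2 was left out, 0 of 8 passed again, where 16% of all probes did (7.16% higher, 8.82% lower). Ctrl was again the only member with an unadjusted p under 0.05 (limma), where 34% of all probes had one. The median was then 0.12 against -0.01, with 5 above and 3 below 0. With arrays centred on their median instead of the 75th percentile, the median of all probes moved from 0.05 to -0.35 and 7 of the 8 member probes lay below 0, with Ctrl at 0.68 and Ctrc at -1.0 (log2), and again 0 passed (limma). This centring lowered all 8 member probes by the same amount. In bulk RNA, fewer acinar cells and less RNA per cell cannot be told apart.

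**Figure D1:**
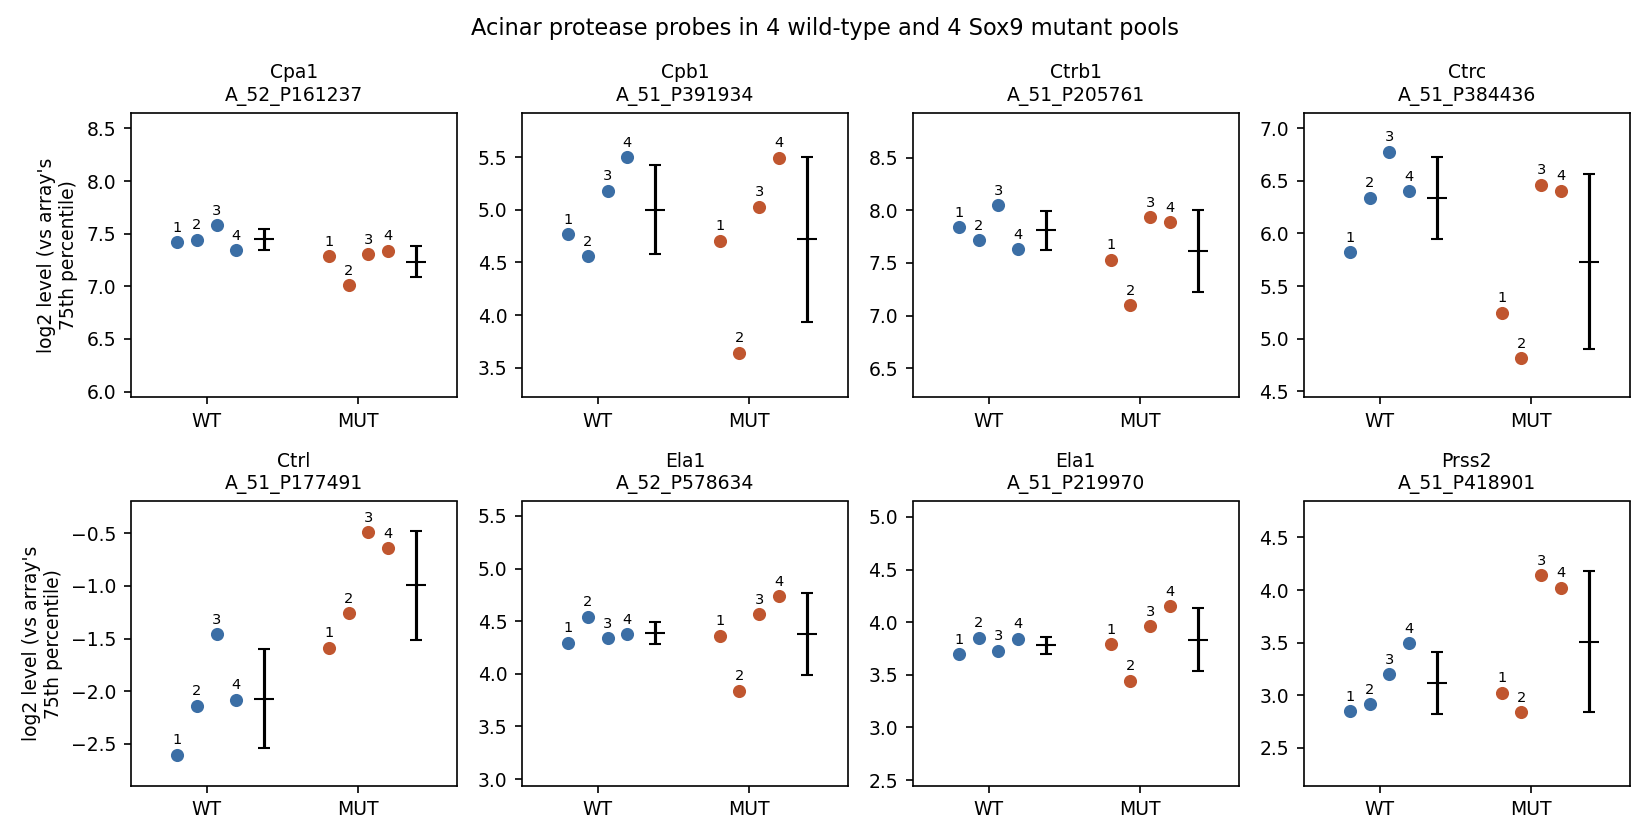
Log2 level of each protease probe relative to the array's 75th percentile (vertical axis, the same span in every panel) in the 4 WT (blue) and 4 MUT (orange) pools, with replicate numbers beside the points and the mean and SD as black bars. MUT overlaps WT in every panel except that of Cpa1, where the 4 MUT values lie at 7.34 or below and the WT values at 7.34 or above with a gap of less than 0.01, and Ctrl shows the largest shift, with 3 MUT pools above all WT pools.

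The carboxypeptidases trim single amino acids from the carboxyl end of peptides. Cpa1, which removes aromatic and aliphatic residues, was measured by probe A_52_P161237 (accession NM_025350, mm8 chr6:30595250-30595309, plus strand). It read 7.42, 7.44, 7.58 and 7.34 in WT replicates 1 to 4 and 7.28, 7.01, 7.31 and 7.34 in MUT replicates 1 to 4. Every MUT value was below every WT value, although WT replicate 4 and MUT replicate 4 differed by less than 0.01. In scanner units, before centring, the groups overlapped, with 336626 to 358390.4 in WT and 315102.8 to 356027 in MUT, all from the scan at lower gain. Groups did not overlap for 25.6% of all probes, with MUT higher for 13% and lower for 12.6%, and for 34.6% when MUT replicate 2 was left out. The means were 7.45 ± 0.10 and 7.24 ± 0.15 (SD, n = 4 pools each), a difference of -0.21 ± 0.10 (log2, SE, 95% interval -0.44 to 0.01, limma, adjusted p 0.236). The mutant level was thus 0.864 of WT, with an interval of 0.738 to 1.01, and 0.909 without MUT replicate 2 (interval 0.812 to 1.02).

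Cpb1 encodes the carboxypeptidase that removes the basic residues left by trypsin (probe A_51_P391934, NM_029706, mm8 chr3:20441618-20441677, minus strand). It read 4.77, 4.56, 5.18 and 5.50 in WT and 4.71, 3.64, 5.03 and 5.50 in MUT, in replicate order. Apart from MUT replicate 2, the lowest of all, the groups covered the same range. The difference was -0.28 ± 0.41 (log2, SE, interval -1.23 to 0.67, limma, adjusted p 0.660). It was 0.076 without MUT replicate 2 (interval -0.55 to 0.71, limma, adjusted p 0.861), so the sign rested on that array.

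The chymotrypsins cut after aromatic and other large residues. Ctrb1, the main chymotrypsinogen gene (probe A_51_P205761, NM_025583, mm8 chr8:114575271-114575330, minus strand), read 7.84, 7.72, 8.05 and 7.63 in WT and 7.53, 7.10, 7.94 and 7.89 in MUT. MUT replicates 1 and 2 were below all WT pools and MUT replicates 3 and 4 lay within the WT range. The mutant mean differed by -0.20 ± 0.20 (log2, SE, interval -0.66 to 0.27, limma, adjusted p 0.544), and -0.02 without MUT replicate 2 (interval -0.34 to 0.30). In units of the scanner the 8 spots read 334661.7 to 502486.8, all from the scan at lower gain.

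Ctrc encodes chymotrypsin C, also called caldecrin, which degrades trypsinogen and so guards against its early activation (probe A_51_P384436, NM_001033875, mm8 chr4:141110788-141110847, minus strand). It read 5.82, 6.34, 6.78 and 6.40 in WT and 5.25, 4.81, 6.46 and 6.41 in MUT. MUT replicates 1 and 2 were below every WT pool, and MUT replicates 3 and 4 stood among the higher WT pools, with 1.16 log2 units between MUT replicate 4 and MUT replicate 1. This gave the largest drop of the set, -0.60 ± 0.42 (log2, SE, interval -1.58 to 0.37, limma, adjusted p 0.394). It was -0.30 without MUT replicate 2 (interval -1.10 to 0.51, limma, adjusted p 0.572).

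Ctrl encodes a chymotrypsin-like protease (probe A_51_P177491, NM_023182, mm8 chr8:108821724-108821783, minus strand). It read -2.60, -2.14, -1.46 and -2.08 in WT and -1.59, -1.26, -0.49 and -0.64 in MUT. MUT replicates 2, 3 and 4 were above all WT pools, and MUT replicate 1 lay just under WT replicate 3. In scanner units these were 323.1, 468.2, 675.0 and 520.7 in WT against 760.2, 1021.5, 1460.3 and 1319.0 in MUT, on all 8 arrays from the scan at full gain. The means were -2.07 ± 0.47 and -0.99 ± 0.52 (SD, n = 4 pools each), a difference of 1.08 ± 0.32 (log2, SE) or 2.11-fold (interval 1.26 to 3.54). The unadjusted p was 0.0108 and the adjusted p 0.110 (limma), so Ctrl did not pass. Without MUT replicate 2 the difference was 2.24-fold (limma, adjusted p 0.0582), and with array weights, which set the weight of that array to 0.0473, Ctrl passed with a log2 fold change of 1.26 (limma, adjusted p 0.021). With those weights 6663 of the 29461 probes passed, against 1131 without them, and Ctrl was the only member among them.

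Ela1 encodes pancreatic elastase, a serine protease that cuts after small residues, and had 2 probes on chromosome 15 (mm8, minus strand). Probe A_52_P578634 (NM_033612, chr15:100512617-100512676) read 4.30, 4.54, 4.34 and 4.38 in WT and 4.36, 3.84, 4.57 and 4.74 in MUT. Probe A_51_P219970 (AK007931, chr15:100513158-100513217) read 3.69, 3.85, 3.73 and 3.84 in WT and 3.79, 3.44, 3.96 and 4.15 in MUT. On both probes MUT replicate 2 was the lowest of all 8 pools and MUT replicates 3 and 4 were the highest. The probes followed each other over the 8 arrays with a Pearson r of 0.967, which describes 1 transcript measured at 2 sites. Their log2 fold changes were -0.01 (interval -0.45 to 0.43, limma, adjusted p 0.972) and 0.06 (interval -0.29 to 0.41, limma, adjusted p 0.820). They were, without MUT replicate 2, 0.17 (interval -0.08 to 0.41) and 0.19 (interval -0.04 to 0.41).

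Prss2 encodes a trypsinogen, the zymogen at the head of the cascade (probe A_51_P418901, NM_009430, mm8 chr6:41453545-41453604, plus strand). It read 2.85, 2.91, 3.20 and 3.49 in WT and 3.02, 2.84, 4.14 and 4.02 in MUT. MUT replicates 3 and 4 were above all WT pools, MUT replicate 1 lay within the WT range, and MUT replicate 2 was 0.01 below the lowest WT pool. The difference was 0.39 ± 0.33 (log2, SE, interval -0.39 to 1.17, limma, adjusted p 0.470), and 0.62 without MUT replicate 2 (interval -0.07 to 1.30, limma, adjusted p 0.185). The 3 highest spots, those of WT replicate 4 and MUT replicates 3 and 4, came from the scan at lower gain and the other 5 from the scan at full gain, and the part of this in the spread was not tested. The trypsinogen genes of chromosome 6 are near copies of each other, so this probe may also bind other trypsinogen transcripts, and that was not tested.

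**Figure D2:**
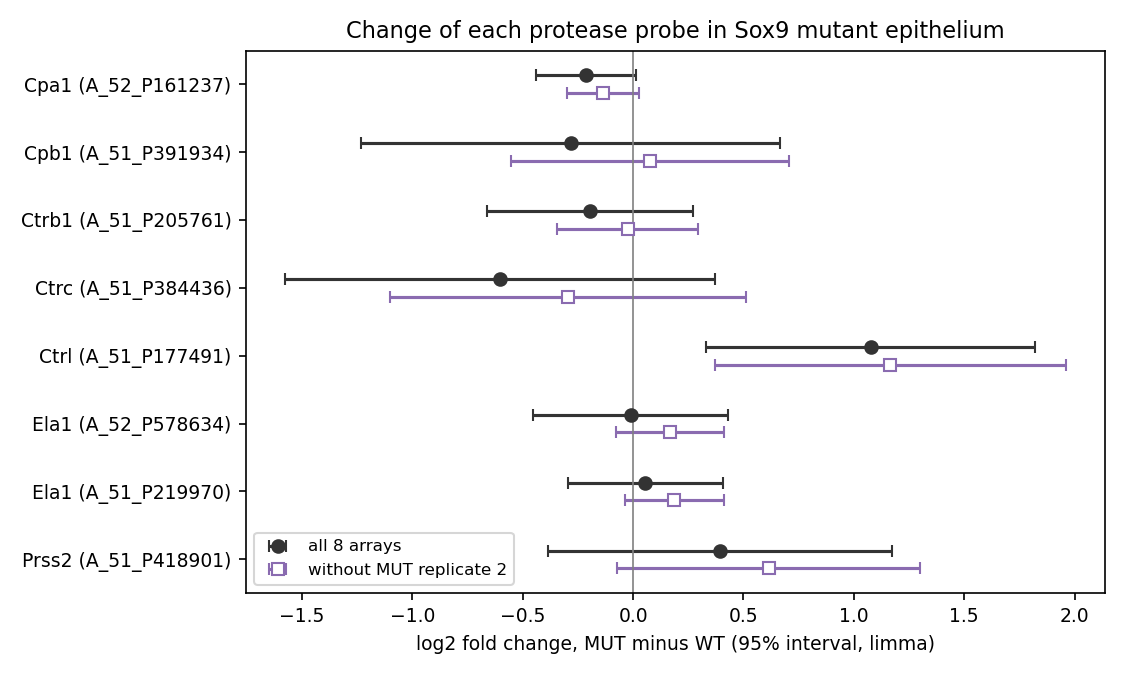
Log2 fold change of each protease probe, MUT minus WT, with its 95% interval from limma, for all 8 arrays (black circles) and without MUT replicate 2 (open purple squares). The interval of Ctrl lies above 0 in both fits (0.33 to 1.82 and 0.37 to 1.96), and the intervals of the other 7 probes include 0.

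**Figure D3:**
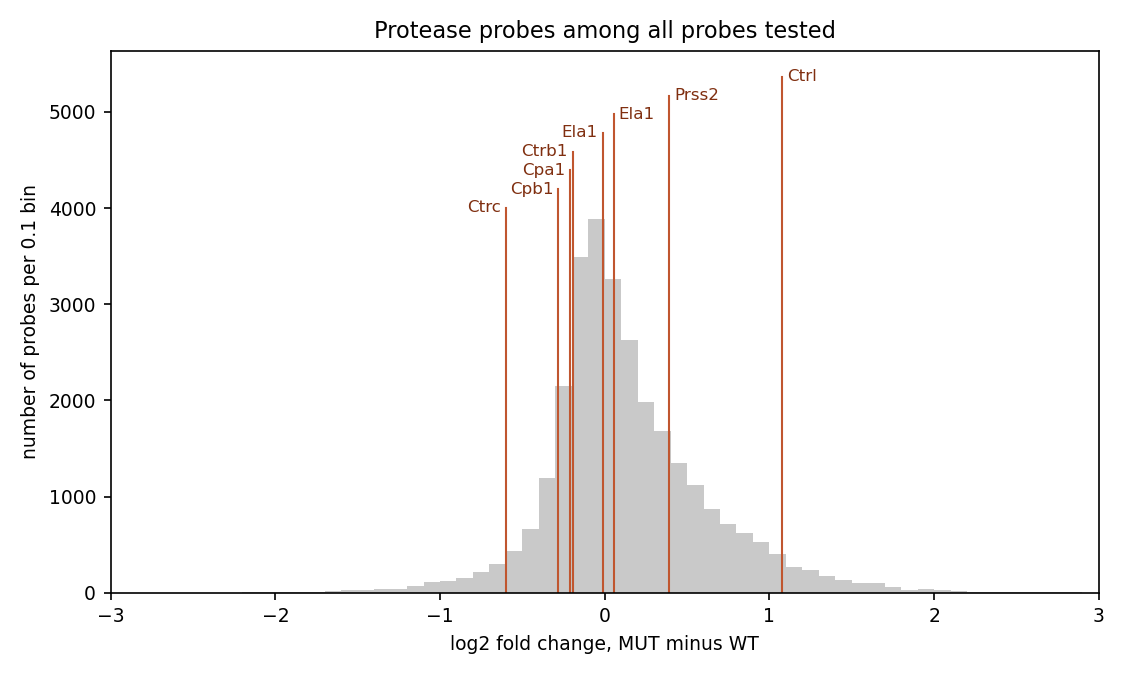
Number of probes (vertical axis) by log2 fold change, MUT minus WT, in bins of 0.1 (grey bars, all probes tested, axis limited to 3 either way), with an orange line at the value of each protease probe. Of the 8 lines, those of Cpa1, Cpb1, Ctrb1, Ela1 and Prss2 stand within 0.4 of 0, in the body of the distribution, and those of Ctrc at -0.60 and Ctrl at 1.08 stand farther out.

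The members differed in how much they varied among pools of 1 genotype. In WT the SD of the log2 level was 0.47 for Ctrl, 0.42 for Cpb1, 0.39 for Ctrc and 0.29 for Prss2, against a median of 0.13 over all probes tested. These SDs lay at the 95.1, 93.3, 91.9 and 84.9 percentile of all probes. Cpa1, at 0.10, and the Ela1 probes, at 0.11 and 0.08, lay at the 36.7, 40.2 and 25.2 percentile. Among the MUT pools without replicate 2 the same 4 genes had the widest spread, with SDs of 0.59 for Ctrl, 0.40 for Cpb1, 0.69 for Ctrc and 0.61 for Prss2, at the 98.2, 94.9, 98.8 and 98.3 percentile, while Cpa1 had 0.03. The Ela1 probes, at 0.19 and 0.18, lay higher there than in WT, at the 79.7 and 78.9 percentile. Ctrb1 had 0.18 in WT and 0.22 in these MUT pools, at the 66.9 and 84.35 percentile. The SD was larger in MUT than in WT for 8 of the 8 member probes, as for 76% of all probes, and without MUT replicate 2 for 6 of 8, as for 33.3% of all probes. These are descriptions of pools of 4 pancreata, with no test.

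The members moved together from pool to pool only in part. Over the 8 arrays, the 15 pairs of member genes without Ctrl had a median Pearson r of 0.73, from 0.06 to 0.87. The 6 pairs that include Ctrl had a median of 0.11, from -0.30 to 0.75. Without MUT replicate 2 the median for the 15 pairs was 0.37, from -0.43 to 0.71, and that for the 6 pairs with Ctrl was 0.42, from -0.31 to 0.87, so the order of these medians and much of the common movement rested on that array. On the 7 arrays the pair with the highest r was Ctrl and Prss2 with 0.87, and Ctrb1 and Ctrc had 0.71. All arrays share the scaling to their own 75th percentile, and no p is given for these values. The mean log2 level of the 8 member probes was 4.26, 4.40, 4.68 and 4.56 in WT replicates 1 to 4 and 4.30, 3.93, 4.86 and 4.93 in MUT replicates 1 to 4, so the mutant pools included the lowest and the 2 highest values.

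The genes whose levels ran most like this mean over the 8 arrays were ranked by Pearson r among 19376 other named genes, and the highest 6 were Clps, Ctsd, Itm2b, Cav2, Os9 and Ccng1. Clps, which encodes the colipase that pancreatic lipase needs, had an r of 0.984 (Spearman's rho 0.952), and 0.976 (rho 0.929) over the 7 arrays without MUT replicate 2. Ctsd, the gene of the lysosomal protease cathepsin D, had 0.982 (rho 0.976), and 0.969 (rho 0.964) over the 7 arrays. Itm2b, Cav2, Os9 and Ccng1 had 0.974, 0.973, 0.973 and 0.970, with rho of 0.952 to 0.976, and 0.945 to 0.969 over the 7 arrays, with rho of 0.929 to 0.964. The 6 were picked as the highest of many, and 0 of them passed the test between genotypes (limma, adjusted p of 0.791 to 0.996). That count is no separate result, since genes picked to follow the member mean also share its overlap between the genotypes.

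Other digestive proteases outside the set gave 6 tested genes of 10 listed. Of these 0 rose and 0 fell (limma), with a median log2 fold change of -0.27. On the 7 arrays without MUT replicate 2 again 0 passed, and the median was 0.0054. The elastase genes Cela2a and Cela3b had -0.38 (limma, adjusted p 0.604) and -0.16 (limma, adjusted p 0.756). Among the other trypsinogens, Prss3 had -0.39 (limma, adjusted p 0.415) and Try5 0.25 (limma, adjusted p 0.585). Cela2a repeated the order of Ctrc in the mutants, with 4.11 and 3.60 in MUT replicates 1 and 2 and 5.38 and 5.30 in replicates 3 and 4, against 4.33 to 5.47 in WT. That order was not particular to this pair. Cela3b had it too, with 6.09, 5.87, 7.14 and 6.99 in MUT replicates 1 to 4, as did the members Ctrb1 and Prss2. In Prss3 and Try5 MUT replicate 4 was the highest mutant pool. Klk1, the pancreatic kallikrein gene, had the smallest p of the list and a log2 fold change of -1.03 (limma, adjusted p 0.162). The genes of this paragraph outside the set, other than Klk1 and Prss3, were chosen by family after their values were seen.

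Of 18 tested genes for other acinar secretory products, 1 rose and 0 fell (limma), with a median log2 fold change of 0.25 and 14 of 18 above 0. Leaving out MUT replicate 2, 3 rose and 0 fell, where 7.16% of all probes rose and 8.82% fell, and the median was 0.27. The gene that passed with all arrays was Reg1, which encodes a secreted lectin-like protein of acinar cells, at 3.13 ± 0.45 in WT and 5.10 ± 0.75 in MUT (SD, n = 4 pools each), or 3.92-fold (limma, adjusted p 0.0440).

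Of the 9 acinar and tip transcription factor genes tested, 0 passed with all arrays, and 8 of 9 log2 fold changes were below 0, with a median of -0.20. On the 7 arrays without MUT replicate 2, 0 rose and 2 fell, Bhlha15 and Gata6, and the median was -0.08. Of all probes 7.16% rose and 8.82% fell on those arrays. Bhlha15 (on the array as Bhlhb8), which encodes MIST1, a regulator of the secretory apparatus of acinar cells, was at 4.49 ± 0.07 in WT and 3.99 ± 0.29 in MUT (SD, n = 4 pools each), a log2 fold change of -0.50 (limma, adjusted p 0.109), and -0.35 (limma, adjusted p 0.0209) without MUT replicate 2. Gata6, which encodes a zinc finger factor of early pancreas and acinar cells, had -0.27 (limma, adjusted p 0.0652), and -0.23 (limma, adjusted p 0.0251) without that array. The PTF1 genes Ptf1a and Rbpjl had -0.32 (limma, adjusted p 0.205) and -0.22 (limma, adjusted p 0.415), and were named after their values were seen.

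Of 14 tested genes for stimulated secretion and protein folding in the acinar cell, 0 passed with all arrays. Without MUT replicate 2, 0 rose and 2 fell, where 7.16% of all probes rose and 8.82% fell. Rab27b, a granule GTPase gene, had a log2 fold change of 0.33 (limma, adjusted p 0.0884), and Cckar, the receptor gene for cholecystokinin, had -0.51 (limma, adjusted p 0.114, and 0.0252 without MUT replicate 2). Protease inhibitors outside the set gave 11 tested genes, of which 3 rose and 0 fell (limma), and 3 rose and 3 fell on the 7 arrays without MUT replicate 2. Those that rose with all arrays were the alpha-1-antitrypsin genes Serpina1b (8.49-fold, limma, adjusted p 0.00404), Serpina1e (8.22-fold, limma, adjusted p 0.00601) and Serpina1d (6.43-fold, limma, adjusted p 0.00850), which are near copies that the probes may not tell apart. The inhibitors' median was -0.17, and -0.05 without MUT replicate 2. The 3 that fell on the 7 arrays only were Spink4, Pzp and Serpini2, with log2 fold changes of -0.88, -1.17 and -0.36 there (limma, adjusted p of 0.00282, 0.0176 and 0.0412), named after their values were seen. Alpha-1-antitrypsin is also a liver product. The summed level of 6 liver markers, in multiples of the 75th percentile, was 6.87 to 20.2 in WT and 13.2 to 40.7 in MUT. Their mean log2 level was -1.34 to 0.36 in WT. In MUT it was 1.41 in replicate 2 and -0.99 to -0.94 in the other pools. With all arrays 0 liver markers passed in either direction, and 1 was higher without MUT replicate 2. The part of the liver markers in the Serpina1 values was not tested.

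**Figure D4:**
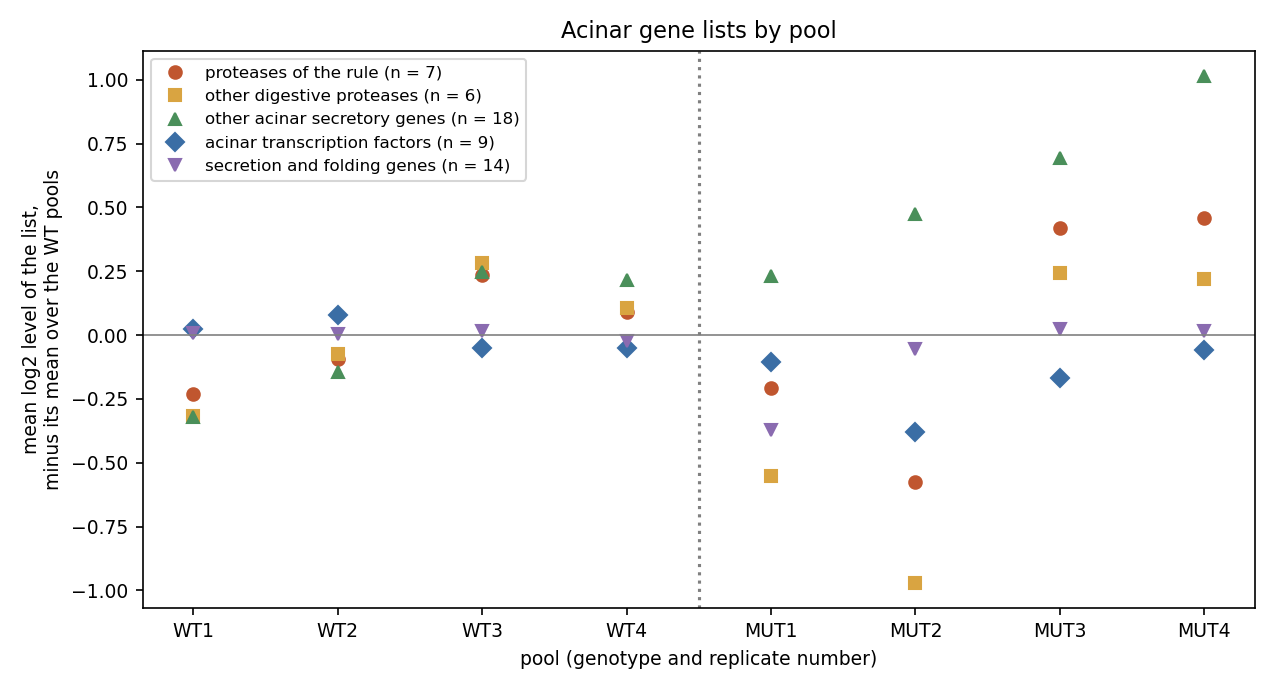
Mean log2 level of each acinar gene list in each pool (points), as the difference from the list's own mean over the WT pools (vertical axis), with WT pools left and MUT pools right of the dotted line. The protease lists lie lowest in MUT2 and at about the level of the higher WT pools or above in MUT3 and MUT4. The mean of the secretory genes other than proteases lies at or above the WT mean in all 4 MUT pools. That mean weighs every gene of the list alike. In MUT1 its Reg genes were higher, Reg1 (5.14 against a WT mean of 3.13), Reg2 (-4.97 against -7.44) and Reg3d (-1.26 against -2.45). The other genes of the list went both ways in MUT1, such as Pla2g1b (-3.25 against -4.21) and Rnase1 (3.63 against 4.26). In MUT2 the genes of that list went both ways. The dim Reg2 (-1.92 against a WT mean of -7.44) and Pla2g1b (-1.63 against -4.21) were higher. The brighter Amy2 (6.71 against 7.53), Rnase1 (2.55 against 4.26) and Sycn (2.69 against 3.68) were lower.

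Markers of other cells were read on the same arrays. Of 12 endocrine markers 7 fell and 0 rose (limma, median log2 fold change -1.32), and their summed linear level, in multiples of the 75th percentile, was 203.8 to 263 in WT and 71.4 to 184.8 in MUT. Leaving out MUT replicate 2, 11 of the 12 fell. Of 9 duct markers 2 fell and 0 rose, with sums of 92.2 to 102.6 and 52.1 to 67.4, and leaving out that array 2 fell and 2 rose, Krt19 and Cftr (limma, adjusted p of 0.00752 and 0.00299). Of 7 neuron and Schwann cell markers 2 fell and 0 rose, and 3 fell without it. Of the 10 mesenchyme markers 1 rose and 0 fell, and 2 rose without it, with sums of 360 to 427.3 and 287.7 to 377.8. Endothelial (7), erythroid (6), leukocyte (8), liver (6), gut (5), spleen (2) and pan-epithelial (6) markers had 0 passed in either direction with all arrays. Without MUT replicate 2, erythroid markers had 2 higher and 1 lower, pan-epithelial 2 higher, leukocyte 1 higher and liver 1 higher, and the endothelial, gut and spleen markers had 0. In that fit 7.16% of all probes passed as higher and 8.82% as lower, against 1.61% and 2.23% with all arrays. The pan-epithelial sums were 184.5 to 195.4 in WT and 178.3 to 244.6 in MUT. The part of these shifts in the protease values was not tested.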

How the data were processed

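Scanner output was deposited for each of the 8 one-colour arrays (Agilent design 014868). Per the file headers it was made with Feature Extraction 9.5.3.1 on probe positions of mouse build mm8, and the intensity used is the linear signal after that software's background subtraction and spatial detrending. Nothing had been scaled between arrays, and bright spots were read from a second scan at lower gain. The deposited series table holds an intensity for 40928 probes on a linear scale that followed the raw median spot signal (r of log2 values 0.982 to 1), and its centring is not given in the sources used here. The submitters' processing notes name limma without steps or version.

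Control spots and outlier spots were left out, spots of a probe were averaged as log2, and each array was centred by subtracting its 75th percentile. Probes well above background on at least 4 of 8 arrays were kept. All probes were tested in 1 model with genotype as its term (limma 3.58.1, lmFit and eBayes, two-sided, R 4.3.3), with Benjamini-Hochberg adjustment over all of them and a threshold of 0.05. All probes were kept, not 1 per gene, because the rule takes every probe of a member. The fit was tested on simulated data with known changes. Per the labels each RNA sample pooled 4 embryos; nothing says that the pools came from separate litters, so p-values measure only the spread between these pools, and the number of arrays limits the precision. Symbols were updated through RefSeq (assembly GRCm38.p6), which matched 24375 of 41174 probes by accession, 6301 by symbol and 2426 by synonym, and left 8072 unmatched. Neutrophil elastase, listed on the array as Ela2, was not counted among the digestive proteases. The values of 1 other listed gene are not reported here.

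The members and lists were chosen with earlier results of these data known. Of each list, up to 4 genes that passed were named by adjusted p, or the 2 with the smallest p where none passed. A listed gene with several probes was read from the one of highest mean, as were the genes ranked for likeness to the mean of the 8 member probes.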

Additional observations from a re-analysis of the deposited data

Results flagged for a closer look

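The array of MUT replicate 2 stood apart for Cpa1 among the 4 MUT pools, at a log2 level of 7.01, with a gap to the nearest pool of 0.837 of the group's range, where Dixon's 95% limit for 4 samples is 0.829. It was the only one of 16 groups of 4 looked at (8 probes in 2 genotypes) that passed this limit, and chance alone passes about 1 in 20.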

How the results depend on the processing

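Under 9 alternatives that kept all arrays and 8 that left out 1, the number of member probes called stayed at 0, except with array weights, where it was 1 (Ctrl). Among all probes, 1131 were called, against 64 with median centring, 35 with normexp background, 427 with no filter on dim probes, 6663 with array weights, 2619 with the series table and 57 with the replicate number as a block. Same-numbered pools deviated together weakly at most (r of -0.01 to 0.13), and 1 of the 4 WT pools correlated best with its own number. These correlations do not show whether same-numbered pools shared a litter or a preparation. The block changed no call among the members. Leaving out 1 array gave 316 to 4708 calls, the most without MUT replicate 2. Median centring moved the median log2 fold change of all probes from 0.05 to -0.35, and put 7 of the 8 member probes below 0: Ctrc at -1.0, Cpb1 at -0.68, Cpa1 at -0.61, Ctrb1 at -0.59, the Ela1 probes at -0.41 and -0.34 and Prss2 at -0.0049, with Ctrl at 0.68. It subtracts 1 constant per array, so all member probes moved by the same amount. The median signal was 734.9 units in MUT replicate 2 and 200 to 252.2 on the other arrays. The 75th percentiles were 2442 and 1859 to 2285. The first Ela1 probe, at -0.01, was 0.14 with quantile normalization, 0.11 with normexp, 0.16 with array weights and 0.12 with the series table. Cpb1 was 0.29 with array weights. Leaving out 1 array put Cpb1 (-0.28 with all) at -0.54 to 0.076, the first Ela1 probe at -0.13 to 0.17 and the second at -0.05 to 0.19. The cause of the shifts under the alternatives other than median centring was not tested. Ctrl stayed above 0 in all 17 alternatives, from 0.68 to 1.28 (adjusted p 0.021 to 0.813, limma). A slide block could not be fitted, since each slide held 1 genotype, and the second Ela1 probe has no value with 1 probe per gene.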
